A study of Mus musculus with 4 samples.

Results

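Receptor tyrosine kinases are single-pass membrane proteins that bind a growth factor, a matrix protein or another cell's ligand outside the cell and carry a tyrosine kinase, or a kinase-like domain, inside it. The genes described here are 39 mouse genes listed as such receptors, not all of them with a known ligand. They were taken by name from a count table of 27095 genes, with the Eph and Fgfr families left out. All 39 were found in the table and all 39 passed the filter on low counts. What was measured at each was H3K27me3, the repressive histone mark that the Polycomb complex PRC2 writes, in alveolar macrophages, the resident phagocytes of the lung airspaces.

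Binding of ligand brings receptor chains together, the kinases phosphorylate one another, and adaptor proteins dock on the phosphorylated tails and start the Ras and PI3K pathways. Most of these receptors are used by a few lineages only, and the genes for those a cell does not use are often held under H3K27me3. In macrophages the best known family members are Csf1r, the receptor for the survival factor CSF1, and the TAM receptors Axl and Mertk, which recognise dying cells.

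The study compared alveolar macrophages sorted from the lungs of Suz12 cKO and wild-type (WT) bone marrow chimeras, with 2 Cut&Tag libraries of each genotype. Suz12 is an obligate subunit of PRC2. The hosts of both groups were irradiated C57BL/6-Ly5.1 mice. In the cKO group 90% of the donor marrow was Ly5.2 of Suz12 cKO genotype and 10% was wild-type Ly5.1, and in the WT group 90% was wild-type Ly5.2 and 10% wild-type Ly5.1. The wild-type Ly5.1 fraction was thus shared by both groups. The sources used here do not give whether the sort removed it, the Cre driver, the deleted part of Suz12 or the ages of the mice. The study's design text calls the libraries biological replicates, and a p-value here rests on the spread between 2 of each genotype.

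In total, 3331138 and 3567282 counts fell in gene windows in the cKO libraries, against 2592297 and 2142175 in the WT libraries. A window is the gene with 3 kb on each side, and its counts were expressed as CPM, each library's counts scaled to a common total. A loss or gain shared by every window therefore leaves CPM as they are. The Suz12 window held 11 and 10 counts in cKO libraries and 8 and 10 in WT libraries, fell below the filter; a level of this mark there does not check the deletion. Windows of 23 alveolar macrophage marker genes carried little of the mark, with a median of 0.134 CPM per kb of window in cKO and 0.142 in WT, against 0.687 and 0.672 for all tested genes. The marker medians here and below include markers under the filter, while the medians of all genes cover tested genes only. The level summed over these 23 was 4.63 to 5.11 CPM per kb in cKO libraries and 3.40 to 4.39 in WT libraries, and Plet1 was at 0 in all 4. Lists of 10 endothelial, 10 fibroblast, 10 lung epithelial and 10 lymphocyte markers had medians of 3.37, 1.33, 2.82 and 1.23 CPM per kb in cKO and 3.62, 1.46, 2.51 and 1.18 in WT. Their summed levels in the same order were 71.9 to 72.8, 31.7 to 31.9, 59.7 to 59.9 and 14.8 to 15.3 in cKO libraries, against 64.5 to 71.6, 32.8 to 34.4, 48.6 to 61.3 and 13.5 to 15.4 in WT libraries. Of the 5 lists, in the order given, 13, 10, 8, 10 and 7 markers passed the filter on low counts. Among these 1 was called, the endothelial Emcn, where 6.42% of all tested genes were called. Emcn lost the mark (log2 fold change −0.63 ± 0.18, SE, adjusted p = 0.0114 by edgeR). The part of other cell types in the results was not tested.

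Receptor tyrosine kinase genes were mostly marked above the ordinary gene, but the macrophage receptors Csf1r, Mertk and Axl stood near the bottom. The median level of the 39 was 1.70 CPM per kb in cKO and 1.64 in WT. Of the 39, 32 lay above the median level of all tested genes and 11 (28.2%) in the top decile, which holds 10.0% of tested genes. Their windows were also longer, with a median of 75.7 kb against 29.15 kb for all tested genes. From the highest member, Ddr1, to the lowest, Insr, the mean over 4 libraries ran from 10.1 to 0.0641 CPM per kb. Of the 7 members below the median of all genes, 4 were Csf1r, Mertk, Axl and Insr, and the others were Erbb4, Aatk and Tek.

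**Figure D1:**
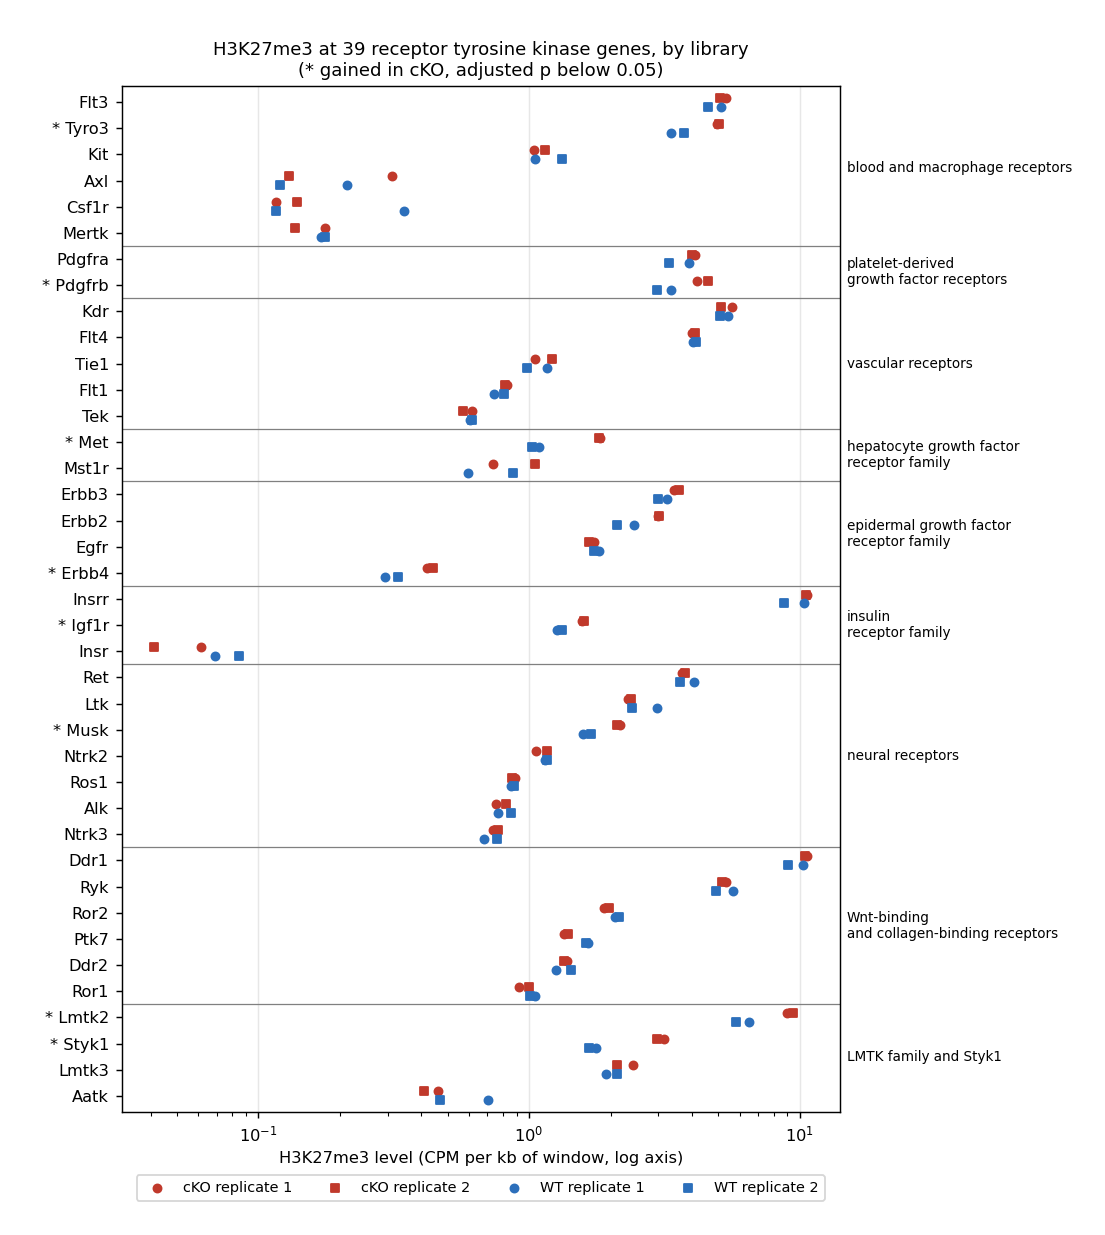
H3K27me3 level of each of the 39 receptor tyrosine kinase genes in CPM per kb of window (log axis), with 1 point per library, cKO in red above WT in blue, grouped by family. Levels run from about 10.1 at Ddr1 and Insrr to 0.0641 at Insr, and for the 8 genes marked with a star both cKO points lie to the right of both WT points.

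The promoters of 5 members are shown because they span this range and include the genes that gained most clearly: Met, Lmtk2 and Erbb4, which had the lowest p-values, Ddr1, the most marked member, and Mertk, the least marked member with a promoter entry. Each is the RefSeq GRCm38.p6 sequence from 250 bases before to 50 bases after a start listed for the gene. At Met, Erbb4 and Ddr1 that start lies inside the gene span, and at Met and Erbb4 the whole sequence does. All are written 5′ to 3′ on the gene's strand, and capitals mark CG dinucleotides, the feature that CpG islands are rich in.
Met (chr6:17463707-17464006, plus strand): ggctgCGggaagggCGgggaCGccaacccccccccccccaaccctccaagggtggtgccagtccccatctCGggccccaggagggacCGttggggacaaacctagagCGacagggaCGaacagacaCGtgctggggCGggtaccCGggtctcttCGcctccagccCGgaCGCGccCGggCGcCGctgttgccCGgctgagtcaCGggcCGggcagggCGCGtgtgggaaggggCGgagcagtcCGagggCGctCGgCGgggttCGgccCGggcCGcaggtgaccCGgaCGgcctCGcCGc
Lmtk2 (chr5:144100111-144100410, plus strand): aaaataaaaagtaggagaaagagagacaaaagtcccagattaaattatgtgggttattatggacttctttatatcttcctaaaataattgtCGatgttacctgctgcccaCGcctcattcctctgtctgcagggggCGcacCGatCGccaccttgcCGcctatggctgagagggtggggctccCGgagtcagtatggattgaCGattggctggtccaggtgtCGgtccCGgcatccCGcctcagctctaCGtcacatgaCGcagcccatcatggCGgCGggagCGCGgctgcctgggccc
Erbb4 (chr1:69108010-69108309, minus strand): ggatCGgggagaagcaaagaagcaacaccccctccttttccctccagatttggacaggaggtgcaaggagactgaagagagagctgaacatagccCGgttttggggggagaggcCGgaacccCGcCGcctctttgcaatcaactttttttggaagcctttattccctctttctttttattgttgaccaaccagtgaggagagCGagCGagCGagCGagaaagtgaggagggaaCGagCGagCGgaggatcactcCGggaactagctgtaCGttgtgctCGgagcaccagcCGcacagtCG
Ddr1 (chr17:35704550-35704849, minus strand): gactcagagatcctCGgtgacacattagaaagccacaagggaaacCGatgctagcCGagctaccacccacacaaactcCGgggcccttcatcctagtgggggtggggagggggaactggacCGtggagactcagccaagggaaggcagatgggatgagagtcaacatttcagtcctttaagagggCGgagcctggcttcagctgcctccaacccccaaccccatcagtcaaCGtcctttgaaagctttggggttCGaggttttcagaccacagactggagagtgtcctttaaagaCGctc
Mertk (chr2:128698665-128698964, plus strand): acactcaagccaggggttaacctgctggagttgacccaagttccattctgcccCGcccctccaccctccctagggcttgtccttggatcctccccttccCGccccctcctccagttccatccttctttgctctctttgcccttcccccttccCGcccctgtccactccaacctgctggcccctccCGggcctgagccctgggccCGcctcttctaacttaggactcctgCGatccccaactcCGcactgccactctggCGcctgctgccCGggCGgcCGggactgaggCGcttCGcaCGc
The Met promoter held 34 CG dinucleotides, a number reached by 7.73% of the 32851 mouse promoters in the table. Lmtk2 and Erbb4 held 17 each (31.4% of promoters have as many), Mertk held 14 (36.3%) and Ddr1 held 9 (45.8%). CG reads the same on both strands, and 94.6% of all promoters of this length hold at least 1. Promoters were found for 31 members and not for Insrr, Ret, Pdgfrb, Erbb3, Styk1, Ntrk3, Csf1r and Insr. For the 5 members with several starts in the table, Ddr1 among them, the start nearest the outer end of the gene was taken.

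The 31 promoters held a median of 18 CG dinucleotides, from 2 at Ddr2 to 48 at Igf1r, against 7 over all promoters, and 25 of the 31 stood above that. Across these 31 genes the count went only loosely with the level of the mark, with a Spearman rho of 0.23 that is a description over genes read in the same 4 libraries. The 6 gained members with an entry had a median of 24 and the 25 members that were not called a median of 18, and this difference was not tested.

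**Figure D2:**
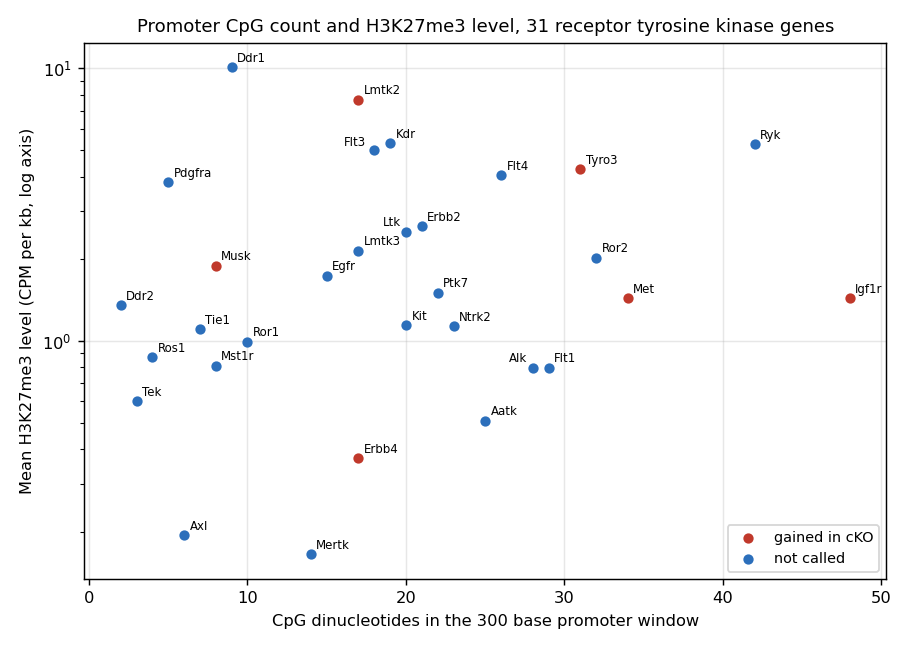
Number of CpG dinucleotides in the promoter window (horizontal axis) and mean H3K27me3 level over 4 libraries in CPM per kb (vertical log axis) for 31 receptor tyrosine kinase genes, gained members in red. Ddr1 is highest with 9, Mertk lowest with 14, and Igf1r has the most, 48.

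Between the genotypes, 8 of the 39 receptor genes gained H3K27me3 in cKO macrophages and 0 lost it. Gained and lost are relative to the other windows of a library, since CPM do not show a change shared by all. The gained genes were Styk1, Met, Lmtk2, Tyro3, Erbb4, Pdgfrb, Musk and Igf1r, with fold changes between 1.22 and 1.79. These calls are from edgeR's quasi-likelihood test over all 16752 tested genes at a Benjamini-Hochberg adjusted p below 0.05, as is every adjusted p below. Over all tested genes 4.46% gained and 1.96% lost (6.42% in either direction), against 20.5% gained and 0 lost among the receptor genes. The receptor windows were longer (median 75.7 kb against 29.15 kb), and a comparison with genes of like window length or counts was not made. At an unadjusted p below 0.05 there were 9 members with a positive and 1 with a negative fold change, and DESeq2 called 5 gained and 0 lost (3.51% and 0.49% of the genes it tested). In 14 members both cKO libraries lay above both WT libraries (35.9%, against 23.8% of all tested genes), and in 6 both lay below (15.4%, against 23.8%). The median log2 fold change of the 39 was 0.06, against −0.01 over all tested genes, and it was −0.02 with upper-quartile scaling. The 31 members that were not called had a median of −0.01, with 15 positive and 16 negative.

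The count depended on single libraries and on scaling. Gained members numbered 5 without cKO replicate 1 and 4 without cKO replicate 2 (2.32% and 1.99% of all tested genes gained there). They numbered 6 without WT replicate 1 and 8 without WT replicate 2 (3.93% and 3.05%). With scaling to housekeeping genes, which moved the median of all genes to 0.48 on the log2 scale, 3 members gained (3.28% of all tested genes), and the median of the members was then 0.54. With a replicate block 9 gained (4.38%). All 8 log2 fold changes were positive in each of the 12 alternatives.

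**Figure D3:**
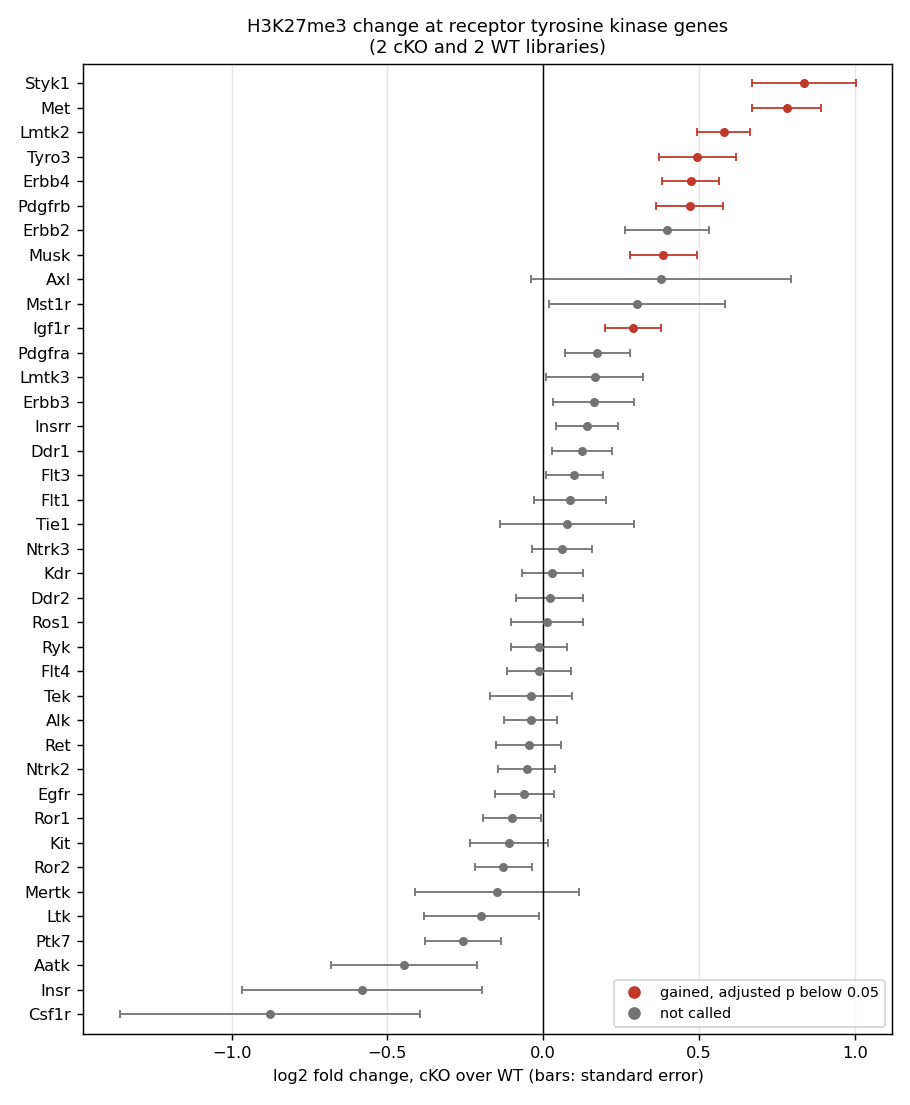
log2 fold change in H3K27me3, cKO over WT, with its standard error for each receptor tyrosine kinase gene (2 libraries per genotype), the 8 gained genes in red. They lie between 0.29 (Igf1r) and 0.84 (Styk1), and Csf1r has the lowest value, −0.88, with an SE of 0.48.

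**Figure D4:**
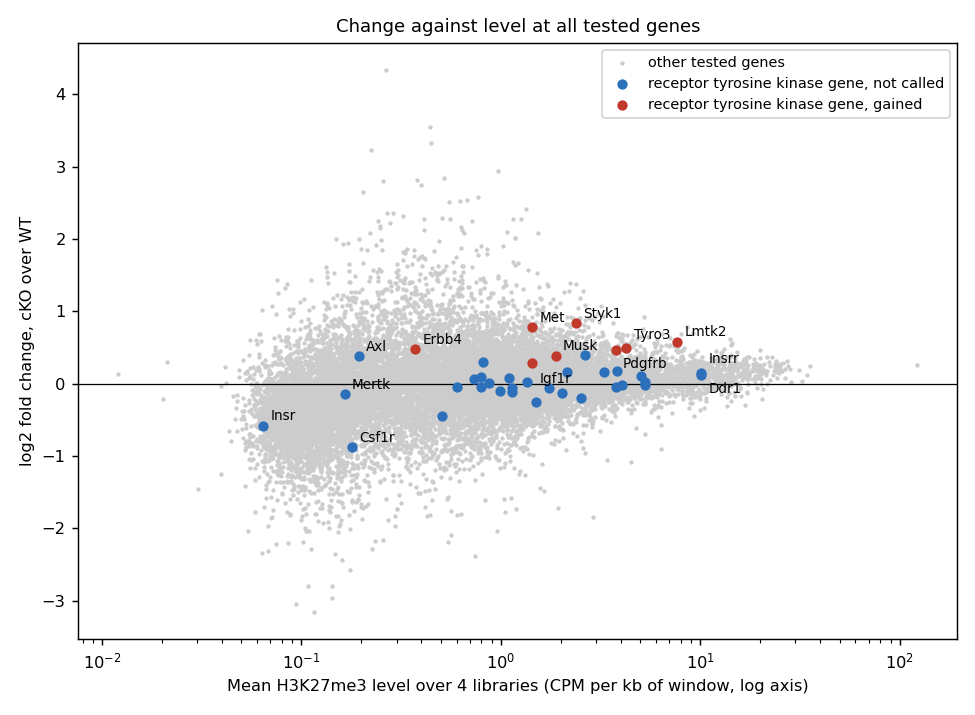
log2 fold change, cKO over WT, against mean level in CPM per kb (log axis) for 16752 tested genes, receptor genes in colour. The gained receptor genes lie at levels between 0.371 (Erbb4) and 7.68 (Lmtk2) CPM per kb, and Ddr1 and Insrr, the most marked at about 10.1, lie near 0.

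Among the 6 receptors of blood cells and macrophages, 1, Tyro3, gained the mark and the others were not called, where 4.46% of all tested genes gained. Tyro3, the TAM receptor best known from the nervous system (chromosome 2, 119797740 to 119818104 in mm10), had 122 and 123 CPM in cKO libraries, against 82.2 and 92.0 CPM in WT libraries. The genotypes did not overlap, and the log2 fold change was 0.50 ± 0.12 (SE, adjusted p = 0.00325). The call was lost without WT replicate 1, cKO replicate 1 or cKO replicate 2 (adjusted p = 0.0685, 0.0763 and 0.133), by DESeq2 (0.0670) and with housekeeping scaling (0.0663).

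The other TAM receptors carried little of the mark. Mertk, which drives engulfment of apoptotic cells, had 19.3 and 14.9 CPM in cKO libraries, against 18.6 and 19.2 CPM in WT libraries, or 0.156 ± 0.0283 and 0.173 ± 0.003997 CPM per kb (SD, n = 2 each). Axl, the receptor for the bridging ligand Gas6, had 11.9 and 4.96 CPM in cKO libraries, against 8.14 and 4.58 CPM in WT libraries. For both genes the genotypes overlapped (adjusted p = 0.827 and 0.696), and Tyro3 stood at 4.98 ± 0.0446 CPM per kb in cKO and 3.54 ± 0.282 in WT.

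Csf1r showed the same low level next to a strongly marked neighbour. It had 3.67 and 4.38 CPM in cKO libraries, against 10.9 and 3.66 CPM in WT libraries, from 12, 15, 28 and 8 counts. WT replicate 1 alone was high, so the genotypes overlapped and the log2 fold change of −0.88 ± 0.48 was not called (adjusted p = 0.324). It was 0.14 without WT replicate 1 (adjusted p = 0.963). Another gene's window covers 18.6% of the Csf1r window, and reads in such overlaps may not have been counted.

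Pdgfrb, the receptor of pericytes and fibroblasts for PDGF-B, lies 20.5 kb from Csf1r on chromosome 18 (61045127 to 61085067, with Csf1r at 61105572 to 61131139) with no other gene of the table between. It had 192 and 210.0 CPM in cKO libraries, against 154 and 136 CPM in WT libraries. The genotypes did not overlap, and Pdgfrb gained 0.47 ± 0.11 on the log2 scale (adjusted p = 0.000892). It was not called without cKO replicate 2 (0.41, adjusted p = 0.186) or with housekeeping scaling (0.98, adjusted p = 0.0641). Per kb, Pdgfrb stood at 4.38 ± 0.277 in cKO and 3.15 ± 0.271 in WT, and Csf1r at 0.128 ± 0.0159 and 0.230 ± 0.161.

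A second cluster of related receptors lies on chromosome 5, where Pdgfra, Kit and Kdr follow one another with no other gene of the table between. Pdgfra, the PDGF receptor of mesenchymal progenitors, had 213 and 208 CPM in cKO libraries, against 202 and 171 CPM in WT libraries. Both cKO libraries were higher, by less than the test could call (log2 fold change 0.17 ± 0.10, adjusted p = 0.384). Kit, the stem cell factor receptor of blood progenitors and mast cells, had 91.4 and 100.5 CPM in cKO libraries, against 91.9 and 116 CPM in WT libraries. Kdr, the main VEGF receptor of endothelium, had 287 and 262 CPM in cKO libraries, against 278 and 259.6 CPM in WT libraries. Both sets overlapped (adjusted p = 0.709 and 0.922). Kit, between the others, was the least marked at 1.09 ± 0.0729 CPM per kb in cKO and 1.19 ± 0.197 in WT, against 4.06 ± 0.0624 and 3.59 ± 0.420 at Pdgfra and 5.37 ± 0.339 and 5.25 ± 0.249 at Kdr.

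Flt3, the receptor of dendritic cell and lymphoid progenitors further along chromosome 5, was the most marked of the blood receptors. It had 405 and 383 CPM in cKO libraries, against 387 and 347 CPM in WT libraries, and the genotypes overlapped (log2 fold change 0.10 ± 0.09, adjusted p = 0.618). Its level was 5.201 ± 0.202 CPM per kb in cKO and 4.85 ± 0.373 in WT. Flt1, a VEGF receptor 161 kb away, stood at 0.822 ± 0.00675 and 0.776 ± 0.0472 CPM per kb.

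Of the 5 vascular receptors, 0 were called by edgeR or DESeq2, against 6.42% of all tested genes by edgeR, so the count says little about so few genes. An unadjusted p below 0.05 was reached by 0 of the 5, and their log2 fold changes lay between −0.04 and 0.09. Flt4, the VEGF receptor of lymphatic vessels, stood at 4.04 ± 0.0842 CPM per kb in cKO and 4.08 ± 0.0975 in WT. The angiopoietin receptor Tek and its relative Tie1 were lower, at 0.593 ± 0.0312 and 1.14 ± 0.117 in cKO and 0.610 ± 0.00647 and 1.07 ± 0.127 in WT.

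Met, the receptor for hepatocyte growth factor, had the lowest p-value of all 39. On chromosome 6 (17463349 to 17573980) its window of 116 kb held 212 and 209.7 CPM in cKO libraries, against 126 and 119 CPM in WT libraries. The cKO libraries agreed to within a few CPM and lay well above both WT libraries. The log2 fold change was 0.78 ± 0.11 (adjusted p = 1.58e-09), and Met was called in all 12 alternatives. Its promoter is the CG-rich first sequence above. Mst1r, the related receptor for macrophage-stimulating protein, had 14.4 and 20.4 CPM in cKO libraries, against 11.6 and 16.9 CPM in WT libraries, with overlapping genotypes (adjusted p = 0.629).

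Of the 4 genes of the epidermal growth factor receptor family, 1, Erbb4, gained, where 4.46% of all tested genes gained. Erbb4, a neuregulin receptor of heart, nerve and breast, had 452 and 475 CPM in cKO libraries, against 316 and 353 CPM in WT libraries. The genotypes were well apart (log2 fold change 0.47 ± 0.09, adjusted p = 3.08e-05). Its window of 1074 kb was the longest of the members, and the level was 0.431 ± 0.0151 CPM per kb in cKO and 0.311 ± 0.0243 in WT. A window count does not say where in the gene the reads lay. With housekeeping scaling Erbb4 was not called (0.96, adjusted p = 0.0790).

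Erbb2, the partner receptor without a ligand of its own, lay just outside the call. It had 93.3 and 94.3 CPM in cKO libraries, against 76.01 and 65.9 CPM in WT libraries. The genotypes did not overlap, and the log2 fold change was 0.40 ± 0.13 (adjusted p = 0.0506). It was called without WT replicate 1 (adjusted p = 0.0386), with DESeq2 size factors (0.0488) and with a replicate block (0.0464), and another window covers 19.2% of its own. Erbb3 stood at 3.49 ± 0.105 CPM per kb in cKO and 3.12 ± 0.169 in WT, and Egfr itself at 1.70 ± 0.0502 and 1.77 ± 0.0524. Neither was called (adjusted p = 0.559 and 0.803).

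In the insulin receptor family the 3 members spanned nearly the whole range of levels. Insr, the insulin receptor, was the least marked of all, at 0.0512 ± 0.0142 CPM per kb in cKO and 0.0770 ± 0.0112 in WT, from 19 to 27 counts per library. It had 8.26 and 5.55 CPM in cKO libraries, against 9.31 and 11.4 CPM in WT libraries, and was not called (log2 fold change −0.58 ± 0.39, adjusted p = 0.443). Insrr, an alkali-sensing relative expressed in few tissues, had 267 and 265 CPM in cKO libraries, against 261 and 220.2 CPM in WT libraries, and reached 10.6 ± 0.0410 CPM per kb in cKO and 9.57 ± 1.16 in WT. Both cKO libraries were higher by a margin that was not called (0.14 ± 0.10, adjusted p = 0.481).

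Igf1r, the receptor for insulin-like growth factors, was the member that gained least. It had 449 and 459 CPM in cKO libraries, against 365 and 379.6 CPM in WT libraries. The genotypes did not overlap, and the log2 fold change was 0.29 ± 0.09 (adjusted p = 0.0304). It was called in 5 of the 12 alternatives. It lost its call without WT replicate 1 (adjusted p = 0.0885), cKO replicate 1 (0.2001) and cKO replicate 2 (0.378), with library totals alone (0.0667), upper-quartile factors (0.135) and housekeeping scaling (0.164), and by DESeq2 (0.0501).

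Of the 7 neural receptors, 1, Musk, gained and the others were not called, where 4.46% of all tested genes gained. Musk, the agrin-responsive kinase that gathers acetylcholine receptors at the neuromuscular junction, had 204 and 199 CPM in cKO libraries, against 149 and 159.8 CPM in WT libraries. The genotypes did not overlap (log2 fold change 0.39 ± 0.11, adjusted p = 0.0104). It was not called without WT replicate 1 (adjusted p = 0.0783), cKO replicate 1 (0.198) or cKO replicate 2 (0.173), or by DESeq2 (0.0687). Nor was it called with upper-quartile factors (0.0637) or housekeeping scaling (0.112), which leaves 6 of the 12 alternatives.

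Ret, the receptor of GDNF family ligands in enteric and sensory neurons, was the most marked of the neural receptors, at 3.72 ± 0.0703 CPM per kb in cKO and 3.83 ± 0.316 in WT (adjusted p = 0.875). The neurotrophin receptors Ntrk2 and Ntrk3 stood at 1.11 ± 0.0748 and 0.750 ± 0.0237 in cKO and 1.16 ± 0.0183 and 0.719 ± 0.0555 in WT. Alk and Ros1, kinases known from oncogenic fusions, stood at 0.787 ± 0.0466 and 0.874 ± 0.0134 in cKO and 0.810 ± 0.0645 and 0.867 ± 0.0157 in WT. Ltk, the relative of Alk, had 35.2 and 35.9 CPM in cKO libraries, against 45.0 and 36.2 CPM in WT libraries, and 55.6% of its window is covered by others, so its level is uncertain.

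Of the 6 receptors that bind Wnt proteins or collagen, 0 were called by edgeR or DESeq2, against 6.42% of all tested genes by edgeR, and 1, Ptk7, had an unadjusted p below 0.05. Ddr1, a collagen receptor of epithelia and the most marked member, had 304 and 299 CPM in cKO libraries, against 294 and 259 CPM in WT libraries, or 10.6 ± 0.128 CPM per kb in cKO and 9.67 ± 0.851 in WT (adjusted p = 0.538). Its mesenchymal relative Ddr2 stood much lower, at 1.36 ± 0.0304 in cKO and 1.35 ± 0.124 in WT.

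Ryk, a Wnt-binding pseudokinase, had 424 and 409 CPM in cKO libraries, against 449 and 391 CPM in WT libraries, with overlapping genotypes (adjusted p = 0.961). Ptk7, a pseudokinase of planar cell polarity, had 95.4 and 99.3 CPM in cKO libraries, against 117 and 115 CPM in WT libraries. Both cKO libraries were lower, and the log2 fold change of −0.26 ± 0.12 was not called (adjusted p = 0.224). The Wnt5a receptors Ror1 and Ror2 also had both cKO libraries below both WT libraries, at 0.959 ± 0.0563 and 1.93 ± 0.0495 CPM per kb in cKO and 1.03 ± 0.0302 and 2.11 ± 0.0524 in WT, and neither was called (adjusted p = 0.631 and 0.494).

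In the small group of LMTK kinases and Styk1, 2 of 4 gained, against 4.46% of all tested genes. Lmtk2, a membrane kinase of endosome traffic on chromosome 5 (144100361 to 144188208), had 844 and 883 CPM in cKO libraries, against 609.6 and 545 CPM in WT libraries. This was the largest difference in CPM of any member, 286, and the genotypes were far apart (log2 fold change 0.58 ± 0.08, adjusted p = 5.68e-09). Lmtk2 was called in all 12 alternatives. It stood at 9.21 ± 0.301 CPM per kb in cKO and 6.16 ± 0.485 in WT, below only Ddr1 and Insrr.

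Styk1, a kinase-like receptor without a known ligand, had the largest fold change. It had 65.1 and 61.6 CPM in cKO libraries, against 36.5 and 34.3 CPM in WT libraries, with no overlap between genotypes. Its log2 fold change of 0.84 ± 0.17 (adjusted p = 5.84e-05) kept its call in all 12 alternatives. The deposited Styk1 window of 20.684 kb is shorter than the reference span, so its level per kb is uncertain. Aatk, an apoptosis-associated kinase gene of nerve cells, had 21.1 and 18.7 CPM in cKO libraries, against 32.2 and 21.5 CPM in WT libraries, with other windows over 25.2% of its own, and was not called (adjusted p = 0.290). Lmtk3 stood at 2.26 ± 0.219 CPM per kb in cKO and 2.02 ± 0.135 in WT, with 40.1% of its window covered by others.

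Of the 16 tested genes nearest to the gained receptors, 1 on each side of each of the 8, 2 gained, 1 lost and 13 were not called. Over all tested genes 4.46% gained and 1.96% lost, and these neighbours were looked up after the calls were known. Next to Met, Cav1, which encodes caveolin-1, lies 122 kb away and gained 1.15 ± 0.31 on the log2 scale (adjusted p = 0.00768). Next to Styk1, Ybx3, a Y-box nucleic acid binding protein, lies 11.02 kb away and gained 0.69 ± 0.18 (adjusted p = 0.00681). Beside Musk, Svep1, an extracellular matrix protein, fell by 0.74 on the log2 scale (SE 0.12, adjusted p = 7.87e-08), against the direction of Musk itself. The strongly marked neighbour of Pdgfrb on its other side, the homeobox gene Cdx1, had 213 and 213 CPM in cKO libraries, against 202 and 179 CPM in WT libraries, and was not called (0.16 ± 0.10, adjusted p = 0.442).

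Of 46 ligand genes of these receptors, 41 were tested, 4 gained and 0 lost. The share gained was 9.76%, against 4.46% of all tested genes. At an unadjusted p below 0.05 there were 6 with a positive and 3 with a negative fold change, and DESeq2 called 4 gained and 0 lost, against 3.51% and 0.49% of the genes it tested. The median level was 1.49 CPM per kb in cKO and 1.05 in WT, and the median log2 fold change 0.05. The most marked was Vegfa, at 10.9 CPM per kb in cKO and 9.96 in WT (adjusted p = 0.538). The 5 below the filter were Mst1, Epgn, Pspn, Vegfb and Angpt2, and Angpt2, whose window lies wholly within another, was at 0 in all libraries.

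Of the 4 gained ligands, Areg, Ereg and Pdgfb had log2 fold changes above that of any receptor gene, and this difference was not tested. Areg, which encodes the EGF receptor ligand amphiregulin, had 28.1 and 28.0 CPM in cKO libraries, against 8.14 and 5.49 CPM in WT libraries (log2 fold change 2.02 ± 0.29, adjusted p = 5.76e-09). Ereg, its neighbour 45.95 kb away on chromosome 5 that encodes epiregulin, had 18.7 and 20.2 CPM in cKO libraries, against 6.59 and 6.41 CPM in WT libraries (1.57 ± 0.33, adjusted p = 0.000167). The genotypes did not overlap at either gene, and both kept their call in every alternative that tested them. In the same cluster Btc, which encodes betacellulin, had 111 and 112 CPM in cKO libraries, against 147 and 126 CPM in WT libraries, and was not called (adjusted p = 0.124).

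Pdgfb, the ligand of Pdgfrb, had 56.9 and 53.7 CPM in cKO libraries, against 22.1 and 21.5 CPM in WT libraries (log2 fold change 1.34 ± 0.19, adjusted p = 3.35e-09). Nrg3, a neuregulin that binds Erbb4, had 338 and 324 CPM in cKO libraries, against 204 and 242 CPM in WT libraries (0.58 ± 0.10, adjusted p = 1.21e-06). In both cases ligand and receptor gained, with no overlap of the genotypes at either gene. Both cKO libraries lay above both WT libraries in 23.8% of all tested genes. The 2 pairs are named because both genes were called. The other neuregulin genes Nrg1, Nrg2 and Nrg4 were not called (0.01, 0.01 and 0.28). Nor were the other PDGF genes Pdgfa, Pdgfc and Pdgfd (0.04, 0.08 and 0.20). Other pairs of ligand and receptor were not called together. Hgf, Igf1 and Agrn, ligands for the gained Met, Igf1r and Musk, were not called (adjusted p = 0.653, 0.938 and 0.226). Their log2 fold changes were 0.55 ± 0.54, −0.08 ± 0.33 and 0.64 ± 0.30. At Agrn both cKO libraries lay above both WT libraries, the direction of Musk. The Hgf window held only 5 to 24 counts per library, so its missing call does not show that the pair moved apart. Areg gained while its receptor gene Egfr was not called (adjusted p = 0.803). Csf1, the ligand of Csf1r, had 63.3 and 74.2 CPM in cKO libraries, against 56.2 and 47.2 CPM in WT libraries, and was not called (0.41 ± 0.15, adjusted p = 0.0902). Gdnf, a ligand of Ret, stood at 7.27 CPM per kb in cKO and 6.44 in WT (adjusted p = 0.367).

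Of 64 adaptor, regulator and co-receptor genes, 63 were matched by name and 50 tested, of which 4 gained and 2 lost (8% and 4%, against 4.46% and 1.96% of all tested genes). DESeq2 called 3 gained and 0 lost, against 3.51% and 0.49% of the genes it tested. At an unadjusted p below 0.05 there were 5 with a positive and 9 with a negative fold change. Their median level was 0.210 CPM per kb in cKO and 0.239 in WT. Dok1, Socs3 and Spry1 were at 0 in all libraries. The strongest mark was at Spry2, a feedback inhibitor of these receptors, with 13.4 CPM per kb in cKO and 13.8 in WT (adjusted p = 0.862).

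Nck2, an adaptor to the actin cytoskeleton, had 134 and 149 CPM in cKO libraries, against 79.1 and 91.1 CPM in WT libraries (log2 fold change 0.73 ± 0.12, adjusted p = 6.87e-07). Gfra1, the co-receptor through which GDNF reaches Ret, had 446 and 451 CPM in cKO libraries, against 358 and 333 CPM in WT libraries (0.37 ± 0.09, adjusted p = 0.00218). Gfra2, the co-receptor for neurturin, had 352 and 334 CPM in cKO libraries, against 270.3 and 261 CPM in WT libraries (0.36 ± 0.10, adjusted p = 0.00544). The related co-receptors Gfra3 and Gfra4 were not called (0.12 ± 0.14 and 0.03 ± 0.24, adjusted p = 0.709 and 0.973), nor was Ret (−0.05 ± 0.10), and the differences among these genes were not tested. Without cKO replicate 1 and cKO replicate 2 the adjusted p was 0.0694 and 0.126 for Gfra1 and 0.196 and 0.0955 for Gfra2, and with housekeeping scaling it was 0.117 for Gfra1 and 0.123 for Gfra2.

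The 2 losses and the last gain were less stable. Spred2, an inhibitor of Ras signalling, had 24.2 and 16.1 CPM in cKO libraries, against 30.2 and 40.3 CPM in WT libraries (log2 fold change −0.80 ± 0.22, adjusted p = 0.00870), and was not called without cKO replicate 2 (0.423) or WT replicate 2 (0.287), by DESeq2 (0.248) or with housekeeping scaling (0.521). Shc3, an adaptor of neurons, had 138 and 134 CPM in cKO libraries, against 187 and 161 CPM in WT libraries (−0.36 ± 0.11, adjusted p = 0.0256), and was not called without cKO replicate 1 (0.232), cKO replicate 2 (0.389) or WT replicate 1 (0.355), with no count filter (0.0520) or by DESeq2 (0.270). With housekeeping scaling the sign of Shc3 turned (0.14, adjusted p = 0.785). Its relative Shc4 had 345 and 329 CPM in cKO libraries, against 269 and 286 CPM in WT libraries (0.28 ± 0.10, adjusted p = 0.0498), and was not called without cKO replicate 1 (0.386), cKO replicate 2 (0.292) or WT replicate 1 (0.172), and was called in 2 of the 12 alternatives.

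**Figure D5:**
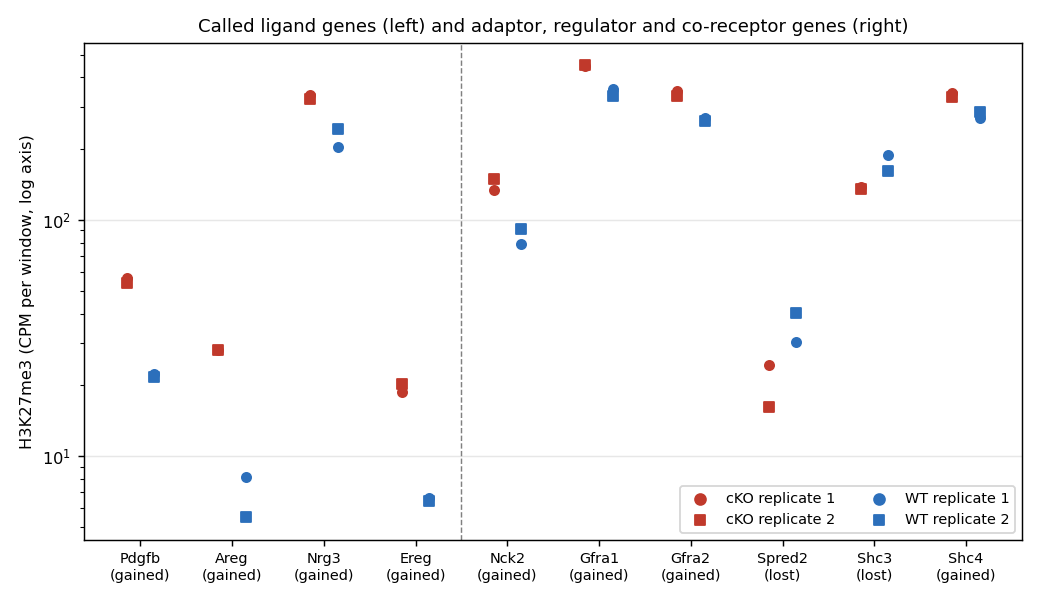
H3K27me3 in CPM per window (log axis) for the 4 called ligand genes and the 6 called adaptor, regulator and co-receptor genes, 1 point per library, cKO in red left of WT in blue. Pdgfb, Areg and Ereg show the widest gaps between genotypes, and Spred2 and Shc3 are the genes with cKO below WT.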

How the data were processed

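H3K27me3 Cut&Tag libraries of 100000 alveolar macrophages, read as pairs of 36 bp, were compared between 2 cKO and 2 WT samples grouped by title (the design text gives reads and cells). The authors deposited whole-number counts for 27095 Entrez gene windows. Per the submitters' processing notes the counter was featureCounts and the build mm10. The sources used here do not give the aligner, duplicate handling or counting options. The deposited window length equals the RefSeq GRCm38.p6 gene span plus 6000 bp for 11525 genes. Symbols were found there for 25204 IDs (93.0%). The window overlaps in the text come from those positions with 3 kb on each side.

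CPM with TMM factors were computed from the counts, and levels per kb used the deposited window length. Genotypes were compared with edgeR 4.0.16 under R 4.3.3 (filterByExpr, glmQLFit, glmQLFTest, genotype as the only term) over all 16752 genes that passed the filter. The SE of a log2 fold change was taken as |log2 fold change|/√F. Depth limits low windows such as Csf1r most. The pipeline was tested on simulated data. Replicates were no copies of one another: chi-square over degrees of freedom was 1.79 for the cKO pair and 1.94 for the WT pair.

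The members and lists were chosen with earlier results of these data known. Values in every library are given for called members, the 5 highest and 5 lowest by level, the 5 uncalled with the lowest p, and Csf1r, Kit, Flt3, Axl, Mertk and Tyro3; Mst1r and Ltk were added. Called ligands and adaptors are given in full, and Btc, Csf1, Cdx1, Hgf, Igf1 and Agrn were named after their values were seen. So were the uncalled neuregulin and PDGF genes. The 12 alternatives were 4 scalings, 2 filters, DESeq2 1.42.0, a replicate block and leaving out each library.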

Additional observations from a re-analysis of the deposited data

How the results depend on the processing

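Over the receptor genes, gained calls numbered 8 in the comparison as reported, 3 with housekeeping scaling, 5 by DESeq2 and 4 to 8 with 1 library left out. The share of all tested genes gained was 4.46% as reported, 3.28% with housekeeping scaling and 3.51% by DESeq2. Over all genes 747 gained and 329 lost as reported. These became 494 and 519 with upper-quartile factors, 323 and 45 by DESeq2, and 350 to 738 and 76 to 207 with 1 library left out, and losses were 8 with housekeeping scaling. One ligand was called lost with library totals alone, upper-quartile factors and the minimum mean of 50 counts (1 each). Adaptor gains were 1 with housekeeping scaling and 1 to 4 with 1 library left out. Adaptor losses were 0 with housekeeping scaling and by DESeq2, 1 with no count filter, and 0 to 1 with 1 library left out. The cause of these shifts was not tested.

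Met, Lmtk2 and Styk1 kept their call in all 12 alternatives. Some uncalled fold changes changed sign, and not only those near 0. Among them were Csf1r, Aatk, Axl and Ptk7, at −0.88, −0.45, 0.38 and −0.26 as reported. With housekeeping scaling, which moved the median of all genes to 0.48, Ryk was at 0.49, Mertk 0.33, Ptk7 0.24, Aatk 0.0717 and Kit 0.36, and the called Shc3 was at 0.14 (adjusted p = 0.785). Kdr was at −0.0247 with library totals alone, −0.0226 with the 50-count minimum and −0.054 with upper-quartile factors. Ryk was at 0.0054 with no count filter and by DESeq2. With 1 library left out, Kdr ran from −0.0292 to 0.10, Ryk from −0.10 to 0.10, Axl from −0.37 to 0.88, Mertk from −0.34 to 0.0301, Kit from −0.27 to 0.0729 and Csf1r from −1.41 to 0.14.

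Deviations of same-numbered libraries were almost uncorrelated over tested genes (r = 0.00948). The labels do not tie same-numbered libraries together, and this r cannot show that they were handled apart. With a replicate block 9 receptor genes gained, Erbb2 being added, 733 gained and 306 lost over all genes, and Shc4 was not called (adjusted p = 0.0641). Per kb of unshared window, levels moved by more than the replicate SD at Styk1, Tyro3, Insrr, Erbb2, Ptk7 and Aatk, to 0.815, 3.97, 12.2, 3.27, 1.62 and 0.681 CPM per kb. The Styk1 and Tyro3 values use a reference span longer than the deposited window, and no other window overlaps that of Tyro3.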
